A study of Mus musculus with 55 samples.

Results

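Poly(A) RNA libraries of mouse oocytes labelled Trim21 at 3 h were compared with control libraries at 3 h, 3 against 3, across all genes. The 6 libraries were chosen by their titles among 55 samples of a series on RNA G-quadruplexes and the helicase DHX36, 26 of which are RNA sequencing libraries with gene counts used here. Titles of both groups carry the name Dhx36, the time and a replicate number, and they differ in the word Trim21 or control. They also hold the words RNA-mix, which the labels do not explain. Both groups are labelled as ovary and oocyte, with a library source of single-cell transcriptome. A protocol text shared by every sample of the series speaks of growing oocytes from control and Dhx36 fl/fl SKO mice. The labels do not say which mice or which oocyte stage gave these 6 libraries, how many oocytes each holds, what the control oocytes received, or whether replicates came from separate animals. The p-values below therefore measure the spread between libraries, which may be technical.

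DHX36, also called RHAU, is a DEAH-box helicase that binds and unwinds G-quadruplexes, stacked structures that guanine-rich RNA and DNA can form, and it acts on both kinds of nucleic acid. TRIM21 is a ubiquitin ligase that binds the constant part of antibodies. In the Trim-Away method, TRIM21 is supplied to a cell together with an antibody, and the protein that the antibody recognises is ubiquitinated and degraded by the proteasome. The method is used in oocytes because these cells store proteins and RNA for long periods, so that loss of a gene is slow to remove its protein. A fully grown oocyte makes little new RNA and relies on stored maternal transcripts.

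The libraries held 7452742 to 32704737 counts, with Trim21 replicate 2 the shallowest and Trim21 replicate 1 the deepest. Log2 CPM (counts per 1000000) of libraries of the same group correlated across genes at 0.969 to 0.983, and those of different groups at 0.939 to 0.954. All 12 oocyte markers on the list were present in every library, at 83.3 to 8000 CPM (the lowest and highest value of any of them). Libraries of the same group differed by more than counting noise alone, at 7.26 to 34.5 times the chi-square expected per gene, so that no pair was treated as repeat deposits of 1 library. This does not show whether they are separate samples or separate preparations of 1 sample. A gene is called higher or lower here when edgeR's quasi-likelihood test gave a Benjamini-Hochberg adjusted p under 0.05 over all 14191 genes tested. CPM in single libraries are given on TMM-scaled library sizes (normalised CPM) unless stated otherwise, and log2 fold changes are Trim21 over control with their standard error (SE). Where leaving out a library or another setting ended a call (a replicate block aside, which is given with the other alternatives at the end), the adjusted p of those fits follows the word "but", and then the range over all alternatives. Positions are in mouse build mm9, which the submitters' processing notes name.

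Dhx36 RNA was lower in the Trim21 libraries and Trim21 RNA was far higher. Dhx36 (chr3:62273961-62310926, minus strand) stood at 29.6, 32.0 and 29.9 normalised CPM in the control libraries and 6.23, 8.17 and 8.77 in the Trim21 libraries. The control libraries lay close together and all above the Trim21 libraries, which rest on 61 to 202 counts each. Dhx36 fell (log2 fold change -1.99, SE 0.175, adjusted p = 1.43e-05). Trim21 (chr7:109706436-109713983, minus strand) stood at 14.6, 14.7 and 14.8 normalised CPM in the control libraries and 8473, 9309.9 and 7620.1 in the Trim21 libraries. It rose (log2 fold change 9.17, SE 0.128, adjusted p = 4.41e-13) and took 0.778 to 0.933% of all counts in the Trim21 libraries. The controls were not at 0: their mean level was 0.174% of the mean in the Trim21 libraries. In 18 other oocyte libraries of the series with at least 1000000 counts, Trim21 reached at most 0.361 CPM. The counts do not tell Trim21 RNA made by the oocyte from RNA that was supplied, and they do not measure DHX36 protein. Of 3 other genes tested within 1000000 bases of Dhx36 (Arhgef26, Gpr149 and Mme, a set chosen by position), 0 were called by edgeR, 1 had an unadjusted p under 0.05, and DESeq2 and limma-voom called 0 and 0.

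Across all genes tested, 1630 of 14191 (11.5%) changed, 888 higher (6.26%) and 742 lower (5.23%). Of these, 837 changed at least 2-fold (458 higher, 379 lower), 336 at least 4-fold (179 higher, 157 lower) and 165 at least 8-fold (87 higher, 78 lower). The median absolute log2 fold change was 1.02 among called genes and 0.27 among all genes tested, and the median of all genes was -0.01. The 3 Trim21 and the 3 control values did not overlap for 1619 of the 1630 called genes, beside 4265 of all 14191 (30.1%). The number of calls moved with single libraries. It was 513 higher and 415 lower without Trim21 replicate 3, and 562 higher and 481 lower without Trim21 replicate 1. Without control replicate 2 it was 1005 higher and 931 lower. The plot of change against mean level shows called genes at every level, with the largest changes far outside the cloud.

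**Figure D1:**
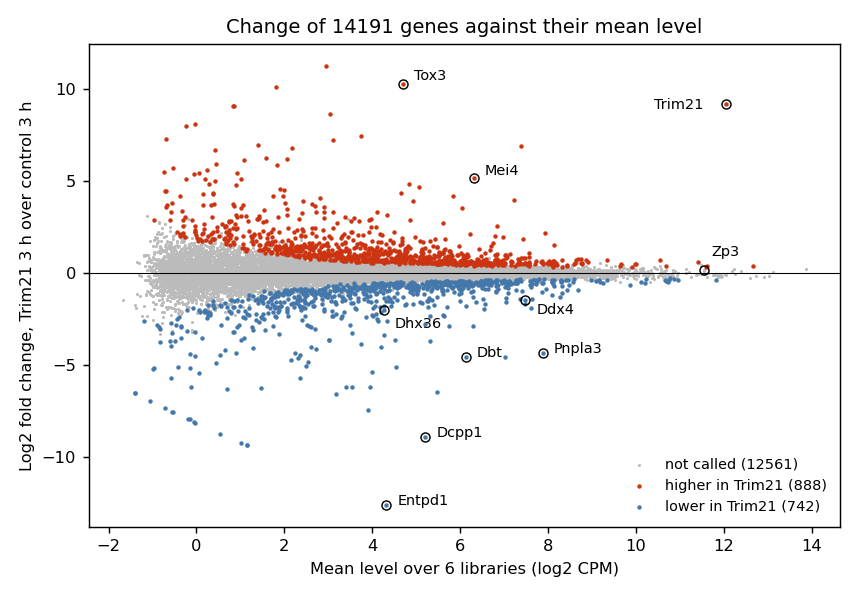
Log2 fold change (Trim21 3 h over control 3 h) of each of 14191 tested genes against its mean log2 CPM over the 6 libraries. Red points are the 888 genes called higher, blue the 742 called lower and grey the rest, and circles mark 10 genes named in the text, among them Tox3 (10.26) and Trim21 (9.17) at the top and Entpd1 (-12.60, with 0 counts in the Trim21 libraries) at the bottom.

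The 10 largest changes each way are described here, taken from called genes whose groups do not overlap and whose log2 CPM averaged 4 or more. Tox3, an HMG-box transcription cofactor (chr8:92771013-92872151, minus strand), stood at 0, 0 and 0.132 normalised CPM in the control libraries and 49.7, 50.2 and 56.4 in the Trim21 libraries. The 2 counts of the 3 controls together stand against 3261 counts, a ratio of 1452 per 1000000 counts (95% interval 402 to 11995, exact and for counting error only). Tox3 was thus near absent in every control and moderate in every Trim21 library (fitted log2 fold change 10.26, SE 0.384, adjusted p = 1.19e-08, 13.07 without control replicate 3, which held both counts). Mei4, which is needed to form the DNA breaks of meiotic recombination (chr9:81757277-82099614, plus strand), stood at 4.51, 4.58 and 4.15 normalised CPM in the control libraries and 162, 193 and 110.0 in the Trim21 libraries. It rose (log2 fold change 5.13, SE 0.217, adjusted p = 3.67e-08), and its groups lie far apart. Tex15, a germ cell protein of meiosis and transposon silencing (chr8:34627210-34696054, plus strand), stood at 11, 14.4 and 6.06 normalised CPM in the control libraries and 109, 111 and 146 in the Trim21 libraries, and rose (log2 fold change 3.53, SE 0.255, adjusted p = 3.21e-06). Arid5b, a DNA-binding transcription coactivator (chr10:67558341-67741474, minus strand), stood at 7.80, 7.04 and 2.97 normalised CPM in the control libraries and 107, 93.9 and 126 in the Trim21 libraries, and rose (log2 fold change 4.18, SE 0.274, adjusted p = 1.56e-06). In all 4 genes the lowest Trim21 library was above the highest control.

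The other 5 of the 10 largest increases follow. Atpbd4, also named Dph6, an enzyme of the diphthamide modification of elongation factor 2 (chr2:114342152-114480700, minus strand), had tight groups, at 18.8, 18.4 and 17.9 normalised CPM in the control libraries and 289.8, 284 and 267 in the Trim21 libraries (log2 fold change 3.93, SE 0.116, adjusted p = 1.78e-09). Xdh, xanthine dehydrogenase of purine breakdown (chr17:74233248-74299522, minus strand), had spread controls, at 29.1, 57.7 and 12.2 normalised CPM in the control libraries and 195, 212 and 185 in the Trim21 libraries (log2 fold change 2.57, SE 0.383, adjusted p = 9.78e-04). Without control replicate 2, the highest of the controls, its log2 fold change was 3.23. Rpusd4 (chr9:35075450-35085316, plus strand), a mitochondrial RNA pseudouridine synthase, rose from 3.15 ± 0.675 to 31.3 ± 3.86 normalised CPM (mean ± SD of 3 libraries a group, as in all such pairs of values, log2 fold change 3.33, SE 0.205, adjusted p = 8.93e-07). Homer2 (chr7:88745367-88851811, minus strand), a postsynaptic scaffold protein, rose from 6.81 ± 1.45 to 50.7 ± 5.47 normalised CPM (log2 fold change 2.89, SE 0.185, adjusted p = 1.22e-06). March11 (chr15:26238803-26339331, plus strand), a membrane-bound ubiquitin ligase, rose from 13.2 ± 3.38 to 85.6 ± 30.2 normalised CPM (log2 fold change 2.69, SE 0.257, adjusted p = 2.95e-05). None of these 5 genes had overlapping groups, which the rule of choice required.

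The largest decrease left no count behind. Entpd1, the cell surface enzyme CD39 that breaks down ATP and ADP (chr19:40686856-40816092, plus strand), had 849, 669 and 665 counts in the control libraries and 0 in each Trim21 library. Set against a floor of 3 counts over the 3 Trim21 libraries together, Entpd1 was at least 817-fold lower there (adjusted p = 6.91e-08, edgeR). Dcpp1 (chr17:24017843-24019820, plus strand) and Dcpp2 (chr17:24017848-24037754, plus strand), secreted proteins of the demilune cell and parotid family, overlap each other on the same strand, so that reads could be assigned to either. Dcpp1 stood at 68.7, 83.2 and 67.6 normalised CPM in the control libraries and 0.0627, 0.134 and 0.261 in the Trim21 libraries (log2 fold change -8.91, SE 0.297, adjusted p = 3.80e-09), and at -8.29 without Trim21 replicate 1 and -9.78 without Trim21 replicate 3 on the log2 scale. Dcpp2 stood at 81.0, 106 and 73.5 normalised CPM in the control libraries and 0.815, 2.28 and 0.608 in the Trim21 libraries (log2 fold change -6.48, SE 0.324, adjusted p = 1.41e-07). Every control was far above every Trim21 library in both, and the change of each gene alone is uncertain, since reads could be assigned to either. Spink2, a protease inhibitor known from the sperm acrosome (chr5:77634132-77640496, minus strand), stood at 40.0, 52.5 and 42.3 normalised CPM in the control libraries and 1.41, 1.61 and 0.955 in the Trim21 libraries (log2 fold change -5.14, SE 0.226, adjusted p = 4.11e-08).

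Pnpla3, Fasn and Dbt were also among the 10 largest decreases. Pnpla3, a lipid droplet protein that acts on triglycerides (chr15:83998246-84019942, plus strand), stood at 488, 389.8 and 459 normalised CPM in the control libraries and 2.69, 68.4 and 2.74 in the Trim21 libraries. Trim21 replicate 2 was far above the other Trim21 libraries and still below every control. Pnpla3 fell (log2 fold change -4.37, SE 0.953, adjusted p = 0.0105), and its log2 fold change was -7.35 without that library (adjusted p = 8.51e-09 in that fit and 0.0386 without Trim21 replicate 3, the highest of 14 alternatives). Fasn, fatty acid synthase (chr11:120667254-120685492, minus strand), stood at 47.2, 25.3 and 53.8 normalised CPM in the control libraries and 3.16, 1.87 and 4.25 in the Trim21 libraries (log2 fold change -3.68, SE 0.312, adjusted p = 1.19e-05). Dbt, the acyltransferase core of the branched-chain ketoacid dehydrogenase (chr3:116215988-116252894, plus strand), stood at 149, 113 and 138 normalised CPM in the control libraries and 5.89, 4.15 and 6.21 in the Trim21 libraries (log2 fold change -4.57, SE 0.179, adjusted p = 1.71e-08). In Fasn and Dbt the highest Trim21 library was below the lowest control, which the rule of choice required.

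Pxdn, the matrix enzyme peroxidasin (chr12:30622901-30702523, plus strand), fell from 34.4 ± 2.34 to 1.79 ± 1.47 normalised CPM (log2 fold change -4.01, SE 0.365, adjusted p = 1.99e-05, and -4.64 without Trim21 replicate 1). Sept3 (chr15:82105365-82124872, plus strand), a septin, fell from 34.0 ± 4.73 to 3.93 ± 3.72 normalised CPM (log2 fold change -3.39, SE 0.465, adjusted p = 5.12e-04, and -4.19 without Trim21 replicate 2, the highest of its group). Snora47 (chr13:96100555-96100692, plus strand), a small nucleolar RNA feature that lies inside Zbed3 on the same strand, fell from 93.8 ± 11.4 to 12.9 ± 4.72 normalised CPM (log2 fold change -2.90, SE 0.225, adjusted p = 5.80e-06). Since the libraries hold poly(A) RNA, reads of the host transcript cannot be told from reads of Snora47. All 20 genes with the largest changes stayed called in the same direction under each of 14 alternatives. The plot of single libraries shows the groups apart in each of them, which the rule of choice required.

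**Figure D2:**
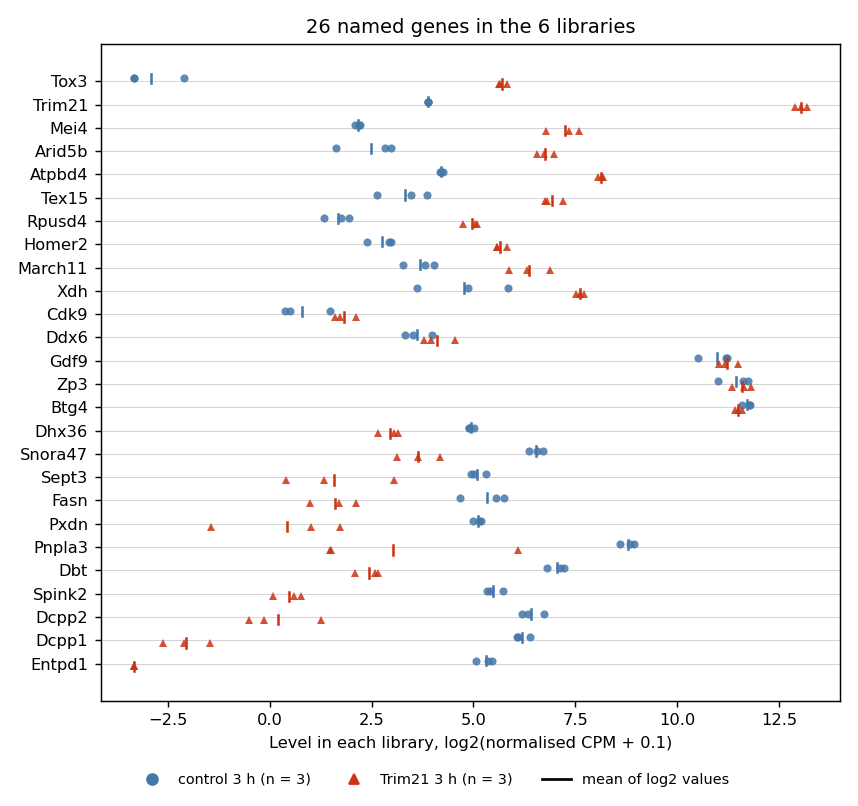
Level of 26 named genes in each library as log2(normalised CPM + 0.1), sorted by log2 fold change, with circles for control 3 h (n = 3), triangles for Trim21 3 h (n = 3) and vertical ticks for the mean of the log2 values. The groups stand apart in Dhx36, narrowly in Cdk9, and in the 20 genes with the largest changes (Trim21 among them), which were chosen to be so. They overlap in Zp3, Gdf9, Ddx6 and Btg4.

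Among all called genes, 15 had no count in any Trim21 library and 7 none in any control. The following were picked from these after their values were seen. Defb8, a defensin, had 980 counts in Trim21 libraries and 0 in controls (at least 291-fold higher). Iqcf1, a calmodulin-binding motif protein, had 428 and 0 (at least 127-fold higher). In the other direction, Sis, the intestinal enzyme sucrase-isomaltase, had 231 control counts and 0 in Trim21 libraries (at least 86.5-fold lower). Cst9, a cystatin, had 209 and 0 (at least 78.2-fold lower).

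The series allows these levels to be set beside 18 other oocyte libraries (growing oocytes, germinal vesicle oocytes and others, on plain CPM from a table that was counted separately). That table holds growing control and Dhx36 sko, germinal vesicle oocytes labelled GV_C or cPDS, and libraries labelled c or rhau_sko, with or without DRB. The ranges of the 18 thus take in libraries labelled Dhx36 sko and libraries treated with cPDS, a ligand of RNA G-quadruplexes. For Tox3 the controls stood at 0 to 0.133 CPM, the Trim21 libraries at 48.6 to 57.6 and the 18 others at 13.9 to 116. Mei4 stood at 4.19 to 4.56, 112 to 194 and 106 to 306 CPM in the same order. For both, the Trim21 libraries lay within the range of the others and the controls below it. Among the decreases, Dbt stood at 109.7 to 151 CPM in controls, 4.16 to 6.34 in Trim21 libraries and 4.6 to 20.4 in the others. Dcpp1 stood at 68.2 to 81.0, 0.0612 to 0.266 and 0 to 0.191 CPM. For Dcpp1 the controls were the only libraries with a level above 1 CPM. Entpd1 went the other way, at 32.8 to 44.3 CPM in controls, 0 in Trim21 libraries and 13.1 to 43.8 in the others.

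Counted over genes, all controls lay outside the range of the 18 libraries on 1 side, with Trim21 libraries not so, for 445 of 1624 called genes (27.4%) and 158 of 334 called genes of at least 4-fold change (47.3%). The same held for 6.16% of all 14118 genes tested in both tables. The reverse, with Trim21 libraries alone outside, held for 4.25%, 5.99% and 1.46%. Of the 10 largest increases, 6 had controls alone outside and 0 had Trim21 libraries alone outside. Of the 10 largest decreases, 7 had controls alone outside and 1 (Entpd1) had Trim21 libraries alone outside. This count was chosen after the values were seen, it carries no test, and what sets these controls apart was not tested. For Dhx36 itself, controls (29.9 to 31.2 CPM) and Trim21 libraries (6.08 to 8.96) both lay within the range of the others (1.87 to 46.9). The low end of that range came from growing oocytes labelled Dhx36 sko (1.87 to 3.02 CPM). Dhx36 stood at 6.45 to 10.8 CPM in growing control, 20.8 to 23.1 in GV_C and 42.2 to 46.9 in libraries labelled c.

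**Figure D3:**
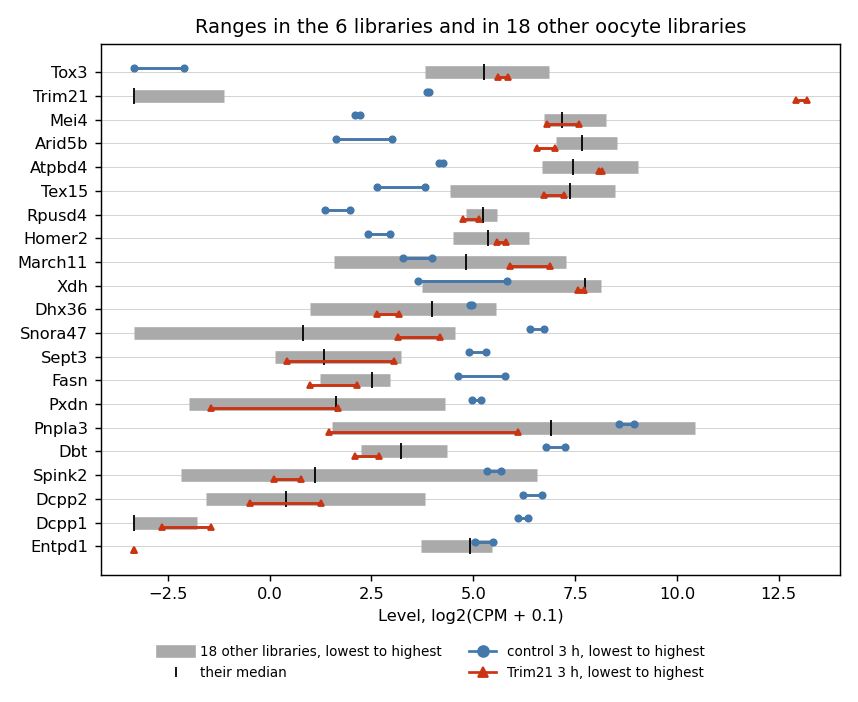
Lowest to highest level of Dhx36 and the 20 genes with the largest changes, as log2(CPM + 0.1), in control 3 h (blue, n = 3), Trim21 3 h (red, n = 3) and 18 other oocyte libraries of the series (grey bar, with a tick at their median). The 18 include libraries labelled Dhx36 sko and cPDS. For 13 of the 20 genes only the blue range lies wholly outside the grey bar, and for Entpd1 only the red.

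Sequences just before the start of some of these genes are shown because DHX36 acts on G-quadruplexes and to show how alike Dcpp1 and Dcpp2 are just before their starts. They are the 150 bases before a RefSeq gene start in build GRCm38.p6, read 5′ to 3′ on the gene's strand. Capitals mark 4 runs of GGG with 1 to 7 bases of any kind between runs, searched on both strands without overlap (a match on the other strand reads as runs of CCC). No capitals means that these 150 bases hold no match. Tox3, Mei4 and Homer2 rose, and Dhx36, Pnpla3, Dcpp1 and Dcpp2 fell.
Dhx36 (chr3:62506989-62507138, minus strand): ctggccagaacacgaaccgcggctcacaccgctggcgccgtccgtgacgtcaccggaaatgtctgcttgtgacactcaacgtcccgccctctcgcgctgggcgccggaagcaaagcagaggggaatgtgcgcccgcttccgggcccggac
Tox3 (chr8:90348253-90348402, minus strand): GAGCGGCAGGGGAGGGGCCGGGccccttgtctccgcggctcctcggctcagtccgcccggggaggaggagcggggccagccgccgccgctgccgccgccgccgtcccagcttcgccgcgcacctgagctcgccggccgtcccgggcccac
Mei4 (chr9:81863520-81863669, plus strand): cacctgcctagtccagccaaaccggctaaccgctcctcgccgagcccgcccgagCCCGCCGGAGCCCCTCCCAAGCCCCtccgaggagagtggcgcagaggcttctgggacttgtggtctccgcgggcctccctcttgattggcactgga
Homer2 (chr7:81706926-81707075, minus strand): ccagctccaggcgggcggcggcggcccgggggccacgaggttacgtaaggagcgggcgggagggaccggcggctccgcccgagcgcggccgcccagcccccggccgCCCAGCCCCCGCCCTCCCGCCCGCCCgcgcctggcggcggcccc
Pnpla3 (chr15:84167666-84167815, plus strand): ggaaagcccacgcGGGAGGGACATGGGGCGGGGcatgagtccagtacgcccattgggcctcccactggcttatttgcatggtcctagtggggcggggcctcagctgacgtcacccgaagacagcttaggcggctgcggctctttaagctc
Dcpp1 (chr17:23880726-23880875, plus strand): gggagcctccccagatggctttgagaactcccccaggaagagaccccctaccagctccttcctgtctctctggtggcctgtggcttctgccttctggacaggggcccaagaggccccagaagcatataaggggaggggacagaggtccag
Dcpp2 (chr17:23898572-23898721, plus strand): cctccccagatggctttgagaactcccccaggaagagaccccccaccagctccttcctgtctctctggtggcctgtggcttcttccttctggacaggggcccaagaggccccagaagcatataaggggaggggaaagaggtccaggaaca
The 300-base windows of Dcpp1 and Dcpp2 were identical at 286 of 295 aligned bases (96.9%). This likeness is of promoter windows, and shared reads were not measured. The pattern was found in 18.5% of all 32851 windows of that table and in 28.3% of the windows matched to tested genes, and the stretches shown were picked for display. Windows were matched for 73.9% of the genes tested and for 15 of the 20 genes with the largest changes. Since both are under 80%, a comparison of the pattern between called and other genes is void, and a match is a description of the letters, not a site.

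Genes related to DHX36 by family or by function were counted by list. Of 23 tested G-quadruplex helicases, 0 rose and 1 fell, which is Dhx36 itself, with a median of -0.09 beside -0.01 over all genes. Of 30 tested G-quadruplex binding proteins 0 were called by edgeR, 4 had an unadjusted p under 0.05, and DESeq2 and limma-voom called 1 and 1. Of 14 other DEAH-box helicases, 1 rose and 0 fell. That gene was Ythdc2, a helicase of meiotic germ cells that reads methylated adenosine (18 ± 5.16 to 33.2 ± 6.08 normalised CPM; log2 fold change 0.88, SE 0.21, adjusted p = 0.0181, but 0.0733 to 0.103 without Trim21 replicate 3, or without control replicate 1 or 3, range 3.84e-05 to 0.103 over 14 alternatives). The share of each list that was called, at most 7.14%, was below the 11.5% of all genes. The lists are small, and this difference was not tested.

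The TRIM family ligases, relatives of TRIM21, had 5 of 22 tested members called (22.7%, beside 11.5% of all genes), of which 4 rose and 1 fell, with a median of 0.12, and Trim21 is 1 of the 4. Trim30a, a TRIM protein of innate immune signalling (chr7:111557539-111613707, minus strand), stood at 4.75, 6.29 and 5.14 normalised CPM in the control libraries and 25.1, 23.3 and 26.9 in the Trim21 libraries. Its groups do not overlap, and it rose (log2 fold change 2.22, SE 0.179, adjusted p = 7.78e-06). Trim37 (log2 fold change 0.55, SE 0.144, adjusted p = 0.0269, but 0.0715 to 0.119 without Trim21 replicate 1, 2 or 3, or without control replicate 1 or 3, range 0.00634 to 0.119 over 14 alternatives) rose. Trim59 (log2 fold change 0.51, SE 0.149, adjusted p = 0.0444, but 0.0910 to 0.169 without Trim21 replicate 1, 2 or 3, or without control replicate 1 or 3, range 0.00358 to 0.169 over 14 alternatives) rose. Rfpl4, an oocyte RING finger protein, fell (log2 fold change -0.30, SE 0.0809, adjusted p = 0.0300, but 0.0677 to 0.111 without Trim21 replicate 1, 2 or 3, or without control replicate 1 or 3, range 0.0178 to 0.111 over 14 alternatives). In the 18 other oocyte libraries, where Trim21 was at most 0.361 CPM, Trim30a stood at 16.4 to 63.2 CPM. The Trim21 libraries (23.3 to 27.4 CPM) lay within that range and the controls (4.80 to 6.12 CPM) below it.

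The proteasome and ubiquitin list had 45 tested members, of which 0 rose and 1 fell, with a median log2 fold change of -0.03. That is 2.22% called, beside 11.5% of all genes. The gene that fell was Psma7, a subunit of the proteasome core (log2 fold change -0.38, SE 0.0937, adjusted p = 0.0211, but 0.0555 to 0.0818 without Trim21 replicate 1 or 3, or without control replicate 1 or 3, range 0.00315 to 0.0818 over 14 alternatives). The interferon and innate signalling list, which holds sensors of foreign RNA and their targets, had 18 tested members, of which 0 rose and 4 fell, with a median log2 fold change of -0.27. The share called was 22.2%, all lower, beside 11.5% called and 5.23% lower over all genes. Isg20, an RNA exonuclease, stood at 12.5, 10.3 and 13.5 normalised CPM in the control libraries and 7.58, 5.89 and 6.34 in the Trim21 libraries (log2 fold change -0.85, SE 0.198, adjusted p = 0.0152, but 0.0566 to 0.0690 without Trim21 replicate 3, or without control replicate 1 or 3, range 0.00290 to 0.0690 over 14 alternatives). Nfkbia, the inhibitor of NF-kB, fell (log2 fold change -0.63, SE 0.173, adjusted p = 0.0337, but 0.0576 to 0.162 without Trim21 replicate 1, 2 or 3, or without control replicate 1 or 3, range 5.23e-04 to 0.162 over 14 alternatives). Nfkb1, a subunit of NF-kB, fell (log2 fold change -0.87, SE 0.247, adjusted p = 0.0406, but 0.0549 to 0.159 without Trim21 replicate 1, 2 or 3, or without control replicate 1, 2 or 3, range 0.0246 to 0.159 over 14 alternatives). Ddx58, the RNA sensor RIG-I, fell (log2 fold change -0.51, SE 0.148, adjusted p = 0.0456, but 0.0550 to 0.182 without Trim21 replicate 1 or 3, or without control replicate 1 or 3, and with library size alone, range 0.0162 to 0.182 over 14 alternatives). None of the 18 tested members rose, and 14 did not pass the test.

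The share called was 5.26% of integrated stress response genes, 9.09% of heat shock and unfolded protein genes, 9.52% of p53 targets and 16.7% of immediate early genes, beside 11.5% of all genes. The integrated stress response list had 19 tested members, of which 0 rose and 1 fell, with a median log2 fold change of -0.11. The gene that fell was Eif2ak3, the endoplasmic reticulum stress kinase PERK (chr6:70794509-70855239, plus strand), at 19.7, 28.3 and 27.5 normalised CPM in the control libraries and 7.02, 9.77 and 9.25 in the Trim21 libraries (log2 fold change -1.55, SE 0.201, adjusted p = 3.31e-04). Its control and Trim21 libraries do not overlap. On plain CPM, its controls (19.9 to 27.8) lay above the range of the 18 other oocyte libraries (2.00 to 11.1). Its Trim21 libraries (6.85 to 9.80) lay within that range. Of 22 heat shock and unfolded protein genes, 2 rose and 0 fell. Hsf2, a heat shock transcription factor, rose (log2 fold change 0.93, SE 0.222, adjusted p = 0.0176, but 0.0538 to 0.112 without Trim21 replicate 1 or 3, range 1.89e-07 to 0.112 over 14 alternatives). Hsp90b1, a chaperone of the endoplasmic reticulum, rose (log2 fold change 0.55, SE 0.148, adjusted p = 0.0316, but 0.0791 to 0.146 without Trim21 replicate 2 or 3, or without control replicate 1 or 3, range 5.26e-04 to 0.146 over 14 alternatives). Of 12 tested immediate early genes, 0 rose and 2 fell. Egr1, a transcription factor, fell (log2 fold change -1.06, SE 0.256, adjusted p = 0.0191, but 0.0828 to 0.0847 without Trim21 replicate 3, or without control replicate 3, range 0.00298 to 0.0847 over 14 alternatives). Zfp36, which promotes decay of AU-rich RNA, fell from a low level of 1.81 ± 0.366 to 0.270 ± 0.236 normalised CPM (log2 fold change -2.45, SE 0.607, adjusted p = 0.0213, but 0.0573 to 0.0909 without Trim21 replicate 1 or 3, or without control replicate 1, range 9.33e-04 to 0.0909 over 13 alternatives). Among 21 p53 targets, Aen, a nuclease, rose (log2 fold change 0.95, SE 0.264, adjusted p = 0.0367, but 0.0626 to 0.213 without Trim21 replicate 1 or 3, or without control replicate 1, 2 or 3, range 0.0135 to 0.213 over 14 alternatives) and Bax, which promotes cell death, fell (log2 fold change -0.71, SE 0.204, adjusted p = 0.0411, but 0.0523 to 0.177 without Trim21 replicate 1 or 3, or without control replicate 1 or 3, and with library size alone, range 0.00330 to 0.177 over 14 alternatives).

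Among genes of oocyte identity the share called was 0 of the zona and oocyte-secreted factors, 8.33% of the defining markers, 8.70% of the transcription factors and 11.1% of the maternal effect genes, beside 11.5% of all genes. Of 15 tested zona and oocyte-secreted factors 0 were called by edgeR, 4 had an unadjusted p under 0.05, and DESeq2 and limma-voom called 1 and 0. Their median was 0.11. Zp3, a sperm-binding zona glycoprotein, stood at 3164, 2039 and 3399 normalised CPM in the control libraries and 3612, 2613 and 3170.2 in the Trim21 libraries. Its groups overlap (log2 fold change 0.13, adjusted p = 0.704). Gdf9, a growth factor of the oocyte, stood at 2343, 1467 and 2385 normalised CPM in the control libraries and 2868, 2084 and 2326 in the Trim21 libraries, and its groups overlap too (log2 fold change 0.23, adjusted p = 0.446). Among 12 defining oocyte markers 1 was called. This was Ddx4, the germ cell RNA helicase also named VASA (chr13:113388541-113442518, minus strand), at 261, 315 and 211 normalised CPM in the control libraries and 86.4, 83.2 and 117 in the Trim21 libraries. It fell (log2 fold change -1.45, SE 0.168, adjusted p = 1.28e-04), with every Trim21 library below every control. On plain CPM, the controls (213 to 307) lay above the range of the 18 other oocyte libraries (23.8 to 167). The Trim21 libraries (83.3 to 120) lay within it.

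Among 27 tested maternal effect genes, whose products are needed by the early embryo, 3 rose and 0 fell, with a median of -0.06. Nlrp14, an oocyte NLR family protein, rose from 2744 ± 108 to 3463 ± 219 normalised CPM (log2 fold change 0.34, SE 0.0846, adjusted p = 0.0229, but 0.0668 to 0.0940 without Trim21 replicate 1 or 3, or without control replicate 1 or 3, range 0.00764 to 0.0940 over 14 alternatives). Bnc1, a zinc finger protein of germ cells, rose (log2 fold change 0.56, SE 0.133, adjusted p = 0.0170, but 0.0700 to 0.0907 without Trim21 replicate 1 or 3, or without control replicate 1 or 3, range 0.00190 to 0.0907 over 14 alternatives). Rnf2, the ubiquitin ligase of Polycomb complex 1, rose (log2 fold change 0.46, SE 0.114, adjusted p = 0.0220, but 0.0588 to 0.10 without Trim21 replicate 1 or 2, or without control replicate 1 or 3, range 0.00449 to 0.10 over 14 alternatives). Of 23 oocyte transcription factors and related genes, 1 rose and 1 fell. Obox1, an oocyte homeobox gene (chr7:16097689-16142215, plus strand), stood at 1931, 2041 and 1762 normalised CPM in the control libraries and 1433, 1398 and 1388 in the Trim21 libraries and fell (log2 fold change -0.44, SE 0.0885, adjusted p = 0.00640). It overlaps its paralog Obox3 on the other strand and is uncertain. Oog4, an oogenesin, rose (log2 fold change 0.47, SE 0.126, adjusted p = 0.0292, but 0.0729 to 0.133 without Trim21 replicate 1 or 3, or without control replicate 3, range 5.04e-04 to 0.133 over 14 alternatives).

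Among genes that store or remove maternal RNA, 3 were called (4.76% of the decay list and 2.78% of the storage list, beside 11.5% of all genes). Of 42 tested maternal mRNA decay genes, 1 rose and 1 fell, with a median of -0.02. Lsm14b, a component of RNA granules that is needed for oocyte maturation (chr2:179759692-179770170, plus strand), stood at 294, 339 and 306 normalised CPM in the control libraries and 138, 156 and 166 in the Trim21 libraries. Its groups lie far apart, and it fell (log2 fold change -1.03, SE 0.112, adjusted p = 7.83e-05). Ythdf2, a reader of methylated adenosine that promotes decay, rose (log2 fold change 0.42, SE 0.111, adjusted p = 0.0305, but 0.0518 to 0.166 without Trim21 replicate 2 or 3, or without control replicate 1 or 3, range 0.0118 to 0.166 over 14 alternatives). Of 36 mRNA storage and translation control genes, 0 rose and 1 fell, Eif4e1b, an oocyte form of the cap-binding protein (log2 fold change -0.51, SE 0.123, adjusted p = 0.0192, but 0.0771 to 0.0917 without Trim21 replicate 1 or 3, or without control replicate 3, range 0.00279 to 0.0917 over 14 alternatives). Ddx6, a helicase of RNA granules (log2 fold change 0.51, adjusted p = 0.213), was not called. Btg4, the adaptor of the deadenylase in maturing oocytes (log2 fold change -0.21, adjusted p = 0.159), was not called, and reached an adjusted p of 0.0491 without control replicate 2 (range 0.0491 to 0.396 over 14 alternatives).

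The meiotic arrest and resumption list had 45 tested members, of which 0 rose and 2 fell, with a median log2 fold change of -0.06. That is 4.44% called, beside 11.5% of all genes. Gpr3, the receptor that keeps cyclic AMP high during arrest, fell from 16.9 ± 2.63 to 11.2 ± 0.523 normalised CPM (log2 fold change -0.59, SE 0.176, adjusted p = 0.0495, but 0.0524 to 0.180 without Trim21 replicate 1, 2 or 3, or without control replicate 1 or 3, and with library size alone and limma-voom, range 0.0144 to 0.180 over 14 alternatives). Mad2l1bp, which silences the spindle checkpoint, fell (log2 fold change -0.75, SE 0.197, adjusted p = 0.0281, but 0.0571 to 0.130 without Trim21 replicate 1, 2 or 3, or without control replicate 1 or 3, range 2.05e-04 to 0.130 over 14 alternatives). Of 32 tubulin and actin genes, 1 rose and 1 fell (6.25% called), and these are near-identical paralogs whose reads could be split. Tuba3a stood at 137, 117 and 144 normalised CPM in the control libraries and 277, 216 and 237 in the Trim21 libraries and rose (log2 fold change 0.87, SE 0.126, adjusted p = 7.59e-04). Tuba3b fell (log2 fold change -0.79, SE 0.220, adjusted p = 0.0363, but 0.0581 to 0.158 without Trim21 replicate 1, 2 or 3, or without control replicate 1 or 3, and with limma-voom, range 5.00e-05 to 0.158 over 14 alternatives).

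Of the elongation list 5.56% was called, of the DNA damage response list 5.26% and of the R-loop list 7.69%, beside 11.5% of all genes. Of 36 tested P-TEFb and elongation genes, 2 rose and 0 fell, with a median of 0.03. Eaf1, a partner of the ELL elongation factors (chr14:32308265-32323044, plus strand), stood at 3.59, 2.77 and 3.16 normalised CPM in the control libraries and 6.52, 7.63 and 7.47 in the Trim21 libraries and rose (log2 fold change 1.18, SE 0.234, adjusted p = 0.00629). Ccnk, the cyclin of CDK12 and CDK13, rose (log2 fold change 0.94, SE 0.237, adjusted p = 0.0228, but 0.0662 to 0.0925 without Trim21 replicate 2 or 3, or without control replicate 1, range 0.00152 to 0.0925 over 14 alternatives). Cdk9, the kinase of P-TEFb, stood at 2.71, 1.21 and 1.32 normalised CPM in the control libraries and 2.94, 3.21 and 4.21 in the Trim21 libraries. Its groups do not overlap by a narrow margin, and it was not called (log2 fold change 0.98, adjusted p = 0.124), except without control replicate 1 (1.46, adjusted p = 0.0457, range 0.0457 to 0.378 over 14 alternatives). Hexim1, an inhibitor of P-TEFb, had 0 to 6 counts per library and was not tested.

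Of 38 DNA damage response genes, 2 rose and 0 fell. Hus1, a subunit of the checkpoint clamp, rose (log2 fold change 0.60, SE 0.135, adjusted p = 0.0129, but 0.0519 to 0.0754 without Trim21 replicate 2 or 3, or without control replicate 1, range 0.00115 to 0.0754 over 14 alternatives). Dclre1c, the end-joining nuclease Artemis, rose (log2 fold change 0.66, SE 0.187, adjusted p = 0.0399, but 0.0636 to 0.157 without Trim21 replicate 1, 2 or 3, or without control replicate 1, 2 or 3, range 0.0230 to 0.157 over 14 alternatives). Of 26 R-loop processing genes, which remove RNA-DNA hybrids, 0 rose and 2 fell. Rnaseh2c, a subunit of RNase H2, fell (log2 fold change -0.78, SE 0.202, adjusted p = 0.0266, but 0.0763 to 0.0938 without Trim21 replicate 1, or without control replicate 1 or 3, range 0.00106 to 0.0938 over 14 alternatives). Thoc5, a subunit of the RNA export complex THO, fell (log2 fold change -0.59, SE 0.170, adjusted p = 0.0408, but 0.0501 to 0.156 without Trim21 replicate 1, 2 or 3, or without control replicate 1 or 3, and with limma-voom, range 0.0144 to 0.156 over 14 alternatives). The median was 0.08 for the first list and -0.08 for the second.

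Of 41 DNA methylation and chromatin regulators, 0 rose and 2 fell (4.88% called, beside 11.5% of all genes, of which 5.23% were lower). Kdm5c, an X-linked histone H3 lysine demethylase (chrX:148667563-148709078, plus strand), stood at 71.1, 79.8 and 76.3 normalised CPM in the control libraries and 53.6, 49.8 and 52.3 in the Trim21 libraries and fell (log2 fold change -0.54, SE 0.116, adjusted p = 0.00949). Tet1, a DNA demethylase, fell (log2 fold change -0.80, SE 0.187, adjusted p = 0.0157, but 0.0598 to 0.0660 without Trim21 replicate 3, or without control replicate 1 or 3, range 0.00393 to 0.0660 over 14 alternatives). Of 19 oocyte linker histone and variant genes 0 were called by edgeR, 3 had an unadjusted p under 0.05, and DESeq2 and limma-voom called 1 and 2. Of 26 tested replication-dependent histone genes 3 rose and 2 fell (19.2% called, beside 11.5% of all genes), with a median of -0.39. Hist1h2bc stood at 60.8, 62.9 and 57.1 normalised CPM in the control libraries and 139, 158 and 135 in the Trim21 libraries and rose (log2 fold change 1.25, SE 0.116, adjusted p = 2.26e-05). Hist1h4h rose from 2.1 ± 0.344 to 5.68 ± 0.892 normalised CPM (log2 fold change 1.41, SE 0.274, adjusted p = 0.00555). Hist1h2bg fell from a low level of 1.39 ± 0.278 to 0.174 ± 0.0809 normalised CPM (log2 fold change -3.15, SE 0.613, adjusted p = 0.00553). Hist2h3c1 rose (log2 fold change 1.21, SE 0.360, adjusted p = 0.0485, but 0.0517 to 0.217 without Trim21 replicate 1, 2 or 3, or without control replicate 1 or 2, and with library size alone, range 0.0208 to 0.217 over 14 alternatives) and Hist3h2ba fell (log2 fold change -1.45, SE 0.336, adjusted p = 0.0151, but 0.0522 to 0.0613 without Trim21 replicate 1, or without control replicate 3, range 1.77e-05 to 0.0613 over 14 alternatives). These genes are near-identical copies whose transcripts mostly lack a poly(A) tail, so their values are uncertain.

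Only 7 of 21 early embryonic activation genes in the table were expressed enough to be tested. Of these, 1 rose and 1 fell (28.6% called, beside 11.5% of all genes). Dub1a, a deubiquitinase, rose from 0.0658 ± 0.0570 to 1.04 ± 0.278 normalised CPM (log2 fold change 3.79, SE 0.774, adjusted p = 0.00720, but 0.0623 without Trim21 replicate 3, range 9.71e-04 to 0.0623 over 13 alternatives). Sp110, a nuclear body protein, fell (log2 fold change -0.45, SE 0.105, adjusted p = 0.0160, but 0.0521 to 0.0783 without Trim21 replicate 1, 2 or 3, or without control replicate 3, range 0.00182 to 0.0783 over 14 alternatives). The median of the 7 was 1.07, and a gene near 0 in one group is tested only if the other group carries it past the filter, so that this median is not that of the list.

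Ribosomal protein and respiratory chain genes had medians slightly below that of all genes. Of 77 ribosomal protein genes, 63 had a negative log2 fold change, with a median of -0.17 beside -0.01 over all genes. Of these 77, 4 rose, 6 fell and 67 did not pass the test (13.0% called, beside 11.5% of all genes). The 6 that fell (Rplp2, Rpl13a, Rpl18, Rps9, Rps20 and Rps26) had log2 fold changes of -0.67 to -0.36, and each lost its call without control replicate 3, among other fits (adjusted p = 0.0506 to 0.195 over the fits that lost them). Rpl21 stood at 11.5, 13.0 and 14.6 normalised CPM in the control libraries and 40.4, 40.7 and 33.3 in the Trim21 libraries and rose (log2 fold change 1.55, SE 0.159, adjusted p = 5.11e-05). Rps2 stood at 20.7, 17.3 and 23.1 normalised CPM in the control libraries and 61.0, 42.6 and 44.9 in the Trim21 libraries and rose (log2 fold change 1.29, SE 0.174, adjusted p = 4.55e-04). Rpl29 (log2 fold change 2.23, SE 0.350, adjusted p = 0.00134) and Rpl34 (log2 fold change 0.60, SE 0.125, adjusted p = 0.00825) rose as well. Ribosomal protein genes have many processed pseudogenes that share reads, so values of single members are uncertain.

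Of 77 nuclear oxidative phosphorylation genes, 52 had a negative log2 fold change, with a median of -0.13, and 0 rose and 5 fell. That is 6.49% called, all lower, beside 11.5% called and 5.23% lower over all genes. Cox6b1, a subunit of cytochrome c oxidase (chr7:31401993-31411170, minus strand), stood at 145, 137 and 144 normalised CPM in the control libraries and 86.2, 87.4 and 91.9 in the Trim21 libraries and fell (log2 fold change -0.68, SE 0.105, adjusted p = 0.00119). Ndufc2, a subunit of complex I, stood at 232, 258 and 229 normalised CPM in the control libraries and 144, 173 and 152 in the Trim21 libraries and fell (log2 fold change -0.62, SE 0.111, adjusted p = 0.00341). Uqcrq of complex III fell (log2 fold change -0.50, SE 0.110, adjusted p = 0.0110, but 0.0623 without Trim21 replicate 3, range 1.69e-04 to 0.0623 over 14 alternatives). Ndufa11 (log2 fold change -0.49, SE 0.129, adjusted p = 0.0293, but 0.0967 to 0.137 without Trim21 replicate 1 or 3, or without control replicate 3, range 7.92e-04 to 0.137 over 14 alternatives) and Ndufa13 (log2 fold change -0.44, SE 0.107, adjusted p = 0.0198, but 0.0585 to 0.0864 without Trim21 replicate 1, 2 or 3, or without control replicate 3, range 0.00273 to 0.0864 over 14 alternatives) of complex I fell as well. Of 9 tested genes of the mitochondrial genome 0 were called by edgeR, 0 had an unadjusted p under 0.05, and DESeq2 and limma-voom called 0 and 0, with a median of -0.38. Their share of counts was 0.0827 to 0.283% in control and 0.0368 to 0.222% in Trim21 libraries, ranges that overlap (exact two-sided permutation p = 0.700).

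Of 42 translation initiation factor genes, 2 rose and 2 fell (9.52% called, beside 11.5% of all genes). Eif3f, a subunit of the factor that binds the small ribosomal subunit (chr7:116077931-116086465, plus strand), stood at 29.0, 28.2 and 30.8 normalised CPM in the control libraries and 18.7, 18.2 and 17.4 in the Trim21 libraries and fell (log2 fold change -0.70, SE 0.140, adjusted p = 0.00657). The other that fell was Eif4e1b, described above. Eif2a rose (log2 fold change 0.46, SE 0.128, adjusted p = 0.0363, but 0.0572 to 0.166 without Trim21 replicate 1, 2 or 3, or without control replicate 1, 2 or 3, range 0.0118 to 0.166 over 14 alternatives). Eif3j rose (log2 fold change 0.60, SE 0.166, adjusted p = 0.0371, but 0.0835 to 0.208 without Trim21 replicate 3, or without control replicate 1 or 3, range 0.00339 to 0.208 over 14 alternatives).

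Most markers of other ovarian cells were low, but not all. Of 24 granulosa and cumulus markers in the table, 14 were under 1 CPM in every library, Amh, Foxl2 and Pgr were at 0 in all 6, and the list took 0.0680 to 0.0741% in control and 0.0683 to 0.0761% in Trim21 libraries (exact two-sided permutation p = 0.500). The highest level of any was 504 CPM, and Serpine2, a protease inhibitor, stood at 475 ± 20.5 in control and 411 ± 40.1 in Trim21 libraries, in normalised CPM (log2 fold change -0.21, adjusted p = 0.243, not called). Of 9 tested members, 2 rose and 1 fell (33.3% called, beside 11.5% of all genes). Cyp19a1, aromatase (chr9:54013744-54115917, minus strand), stood at 25.1, 23.2 and 23.1 normalised CPM in the control libraries and 48.0, 42.0 and 41.2 in the Trim21 libraries and rose (log2 fold change 0.88, SE 0.135, adjusted p = 0.00119). Esr2, an estrogen receptor, rose from 175 ± 4.09 to 239 ± 16.9 normalised CPM (log2 fold change 0.45, SE 0.102, adjusted p = 0.0129, but 0.0615 to 0.0669 without Trim21 replicate 1, or without control replicate 3, range 0.00162 to 0.0669 over 14 alternatives). Krt8, a keratin, fell (log2 fold change -1.32, SE 0.316, adjusted p = 0.0180, but 0.0818 to 0.0964 without Trim21 replicate 3, or without control replicate 3, range 0.00264 to 0.0964 over 14 alternatives). Of 15 theca and stroma markers, 12 were under 1 CPM in every library, Cyp17a1, Insl3 and Lum were at 0, the share was 0.00114 to 0.00158% in control and 8.07e-04 to 0.00118% in Trim21 libraries, and 0 of 5 tested were called by edgeR, 1 had an unadjusted p under 0.05, and DESeq2 and limma-voom called 1 and 1.

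Immune, endothelial and blood markers took 0.0104 to 0.0118% in control and 0.00741 to 0.00886% in Trim21 libraries. These groups do not overlap, and the exact two-sided permutation p of 0.10 is the smallest that 3 against 3 libraries can give. Of the 19 markers in the table, 9 were at 0 in all libraries, Ptprc, Cd3e, Cd14, C1qa and Cdh5 among them, and 13 were under 1 CPM in every library. C1qb, a complement subunit (chr4:136436044-136442102, minus strand), stood at 76.1, 53.4 and 73.0 normalised CPM in the control libraries and 41.4, 27.7 and 36.6 in the Trim21 libraries and was the only one of 6 tested members called (log2 fold change -0.92, SE 0.176, adjusted p = 0.00494). That is 16.7% of those tested, beside 11.5% of all genes. Without C1qb, an alternative chosen after seeing the data, the list's share was 0.00377 to 0.00519% in control and 0.00411 to 0.00512% in Trim21 libraries, ranges that overlap (exact two-sided permutation p = 0.8). The part of these markers in the lower innate signalling genes was not tested. C1qb stood at 11.5 to 123 CPM in the 18 other oocyte libraries, and both groups here lay within that range. The cells in each library are not given, so fewer cells of a type and less RNA per cell cannot be told apart.

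**Figure D4:**
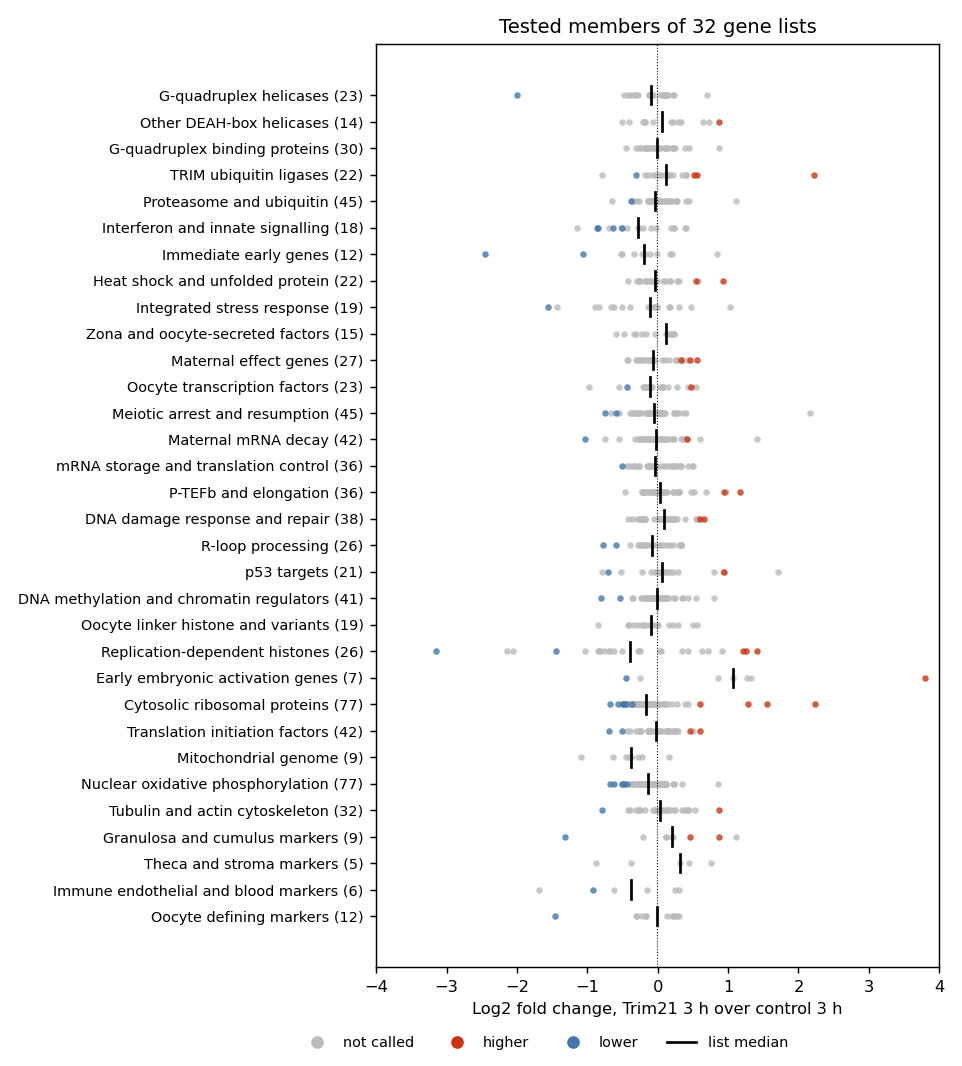
Log2 fold change of the tested members of 32 gene lists (their number in brackets), 1 point a gene, red for called higher, blue for called lower and grey for not called, with a black tick at each list's median and a dotted line at the median of all genes (-0.01). Trim21 (9.17) lies beyond the axis, and most lists centre near 0 with few called members.

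Calls were spread over the genome and leaned with gene length. In the quintile of genes with the shortest span (55 to 5664 bases), 4.79% rose and 7.68% fell. In the quintile with the longest span (69785 bases or more), 8.35% rose and 4.76% fell. The median log2 fold change was -0.09 in the first and 0.04 in the second. By summed exon length, 8.21% of the shortest quintile and 4.23% of the longest fell, while the share that rose was 6.27% and 6.38%. The part of length in the medians of the ribosomal protein and respiratory chain genes was not tested. By mean level, 3.28% rose and 2.61% fell in the lowest quintile, which has the fewest counts, and 8.0% and 6.13% in the middle quintile. By chromosome, the share called ran from 6.91% on chromosome 5 to 15.1% on chromosome 12. These are descriptions, with no test.

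**Figure D5:**
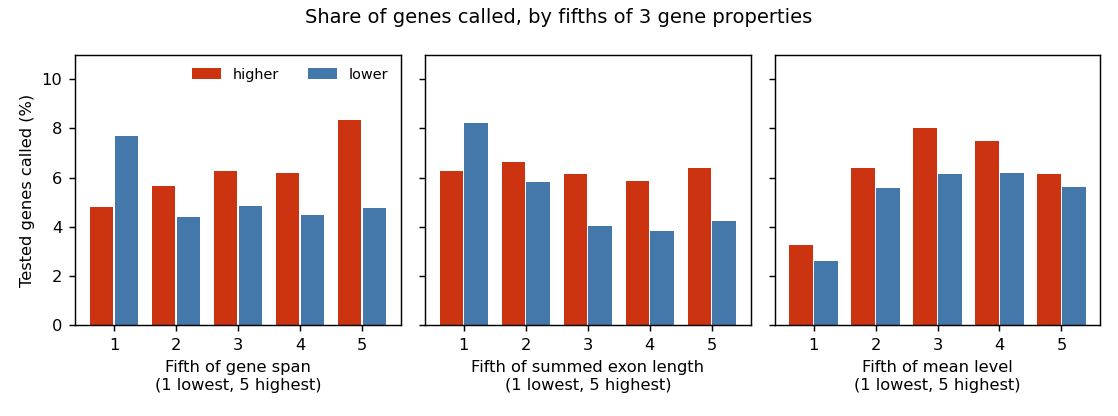
Percent of tested genes called higher (red) and lower (blue) in each quintile of gene span, of summed exon length and of mean level (about 2838 genes a quintile, 1 the lowest). The share of higher calls grows from 4.79% to 8.35% with span, and the share of lower calls is largest in the shortest genes.

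Comparisons of the series that share no library with these 6 were set beside them. In growing oocytes labelled Dhx36 sko against growing control (3 against 3, sko not expanded in the labels), 53.7% of 14081 genes were called (28.5% higher and 25.2% lower). In germinal vesicle oocytes treated for 12 h with cPDS, a ligand of RNA G-quadruplexes, against GV_C (3 against 3), 50.8% of 16115 were (23.4% higher and 27.4% lower). Dhx36 itself had a log2 fold change of -1.99 here, -2.01 in growing sko (SE 0.240, adjusted p = 4.24e-06) and 0.73 with cPDS (SE 0.0993, adjusted p = 1.82e-05). The difference between the decreases here and in growing sko oocytes was not tested.

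The genes called here were called in both directions there. Of 846 genes that rose here and were tested in growing sko, 44.6% rose and 19.1% fell there, 11.1% and 4.65% of the genes that rose and fell in that comparison. Of 649 that fell here, 36.1% fell and 26.3% rose there (6.71% and 5.02% of the genes there). Among genes not called here, 25.1% rose and 27.2% fell. With cPDS, 35.5% of 873 genes that rose here rose and 28.2% fell, and 25.6% of 684 that fell here fell and 30.7% rose. As shares of the cPDS lists these are 8.49%, 5.81%, 4.14% and 5.75%. Of genes not called here, 25.4% rose and 30.9% fell with cPDS. Ddx4, which fell here, had a log2 fold change of 1.81 (adjusted p = 1.27e-07) in growing sko and -1.25 (adjusted p = 3.85e-08) with cPDS. Tex15, which rose here, had -2.25 (adjusted p = 1.27e-08) in growing sko and 0.63 (adjusted p = 4.91e-05) with cPDS. Mei4, which also rose here, had 0.10 (adjusted p = 0.588) and 0.61 (adjusted p = 3.18e-05), and Lsm14b, which fell here, had -0.34 (adjusted p = 0.0895) and -0.12 (adjusted p = 0.431).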

How the data were processed

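Poly(A) RNA of mouse oocytes was sequenced, and the authors deposited raw read counts per gene with the summed exon length of each gene in bases, per the file headers. Build mm9 is named in the submitters' processing notes, as are, for the series as a whole, featureCounts 2.0.1, STAR 2.5.2b, HISAT2 2.1.0, fastp 0.21.0 and cutadapt 1.15. The sources used here do not give which of these made this table, its annotation, whether strand was used, or how reads matching more than 1 place were counted. Values of overlapping genes, antisense genes and close paralogs are therefore uncertain.

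Of 37310 features, 33581 were named by identical exons in the second deposited count table, 2844 by a table of identifiers and names, and 885 kept their identifier. Symbols that a spreadsheet had turned into dates were restored for 25 features. The table of RefSeq promoters (GRCm38.p6) gave the sequences. No column of sample values was left unmapped (0).

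The 6 libraries were fitted with edgeR 4.0.16 (R 4.3.3): genes were kept by filterByExpr with a minimum count of 10 (14191 genes, at least 99.9% of the counts of each library), scaled by TMM and tested by the quasi-likelihood test with 1 term per group and Benjamini-Hochberg adjustment at 0.05. The biological coefficient of variation was 0.1853. The SE is the absolute log2 fold change divided by the square root of F. Alternatives used limma 3.58.1 (voom), DESeq2 1.42.0, other scalings and filters, a replicate block and each library left out. Shares were compared by exact two-sided permutation (scipy 1.17.1), whose smallest p is 0.1. Floors (3 counts) and 95% intervals cover counting error only, since the reads carry no molecular identifiers that are given here. The fits were tested on simulated counts. Growing sko against growing control and cPDS against GV_C were fitted the same way in their own table, which was made separately, so that levels set across tables are descriptions.

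Genes were named by rule: called genes whose log2 CPM averaged 4 or more, with groups that do not overlap and an informative symbol, the 10 with the largest change each way, 2 called members of each list with the smallest p, and Dhx36, Trim21, Cdk9, Hexim1, Zp3, Gdf9, Ddx6 and Btg4 whatever their values. Other called members of short lists were named to account for the counts. The comparison, the lists and this rule were chosen with earlier results of these data known.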

Additional observations from a re-analysis of the deposited data

How the results depend on the processing

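The number of genes called moved with the libraries. Leaving out each library in turn gave 513 to 1005 genes higher and 415 to 931 lower, beside 888 and 742 with all 6. The lowest values came without Trim21 replicate 3 (513 and 415) and without Trim21 replicate 1 (562 and 481). Fewer libraries enter each of these fits, and the arm with 1 library fewer shares its spread with the other. DESeq2 called 1069 higher and 922 lower, and without a filter 1161 and 1036 were called, both within 1.5 times. Dhx36 stayed between -1.85 and -2.12 on the log2 scale and Trim21 between 9.10 and 9.24 under 14 alternatives. Of 65 called genes named by the rule 38 stayed called in the same direction under every alternative. Zp3, not called, changed sign without control replicate 2 (log2 fold change -0.073, adjusted p = 0.751, edgeR), and ran from there to 0.26 as each library was left out. Of 49 values of shares of counts under alternatives 48 moved by less than the spread between libraries, and the exception was the share of immune, endothelial and blood markers without C1qb, chosen after seeing the data (Trim21 minus control 2.54e-04 percentage points beside -0.00298), and 26 of 462 list medians moved by more.

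The replicate numbers were not taken to pair the samples: deviations from the group means correlated at 0.0748, 0.0910 and -0.0492 between same-numbered libraries. With the replicate block 963 genes were higher and 799 lower (at least 2-fold, 434 and 367), and Dhx36 and Trim21 stayed called. Among genes named in the text the block ended the call of Dclre1c (adjusted p = 0.0502), Nfkb1 (0.0517) and Hist2h3c1 (0.0585). In the cPDS comparison the block gave 7559 calls beside 8191. Depth limits genes near the filter, above all in Trim21 replicate 2 with 7452742 counts.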
